A study of Mus musculus with 45 samples.

Results

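Genes whose RNA level in mouse cortical cells stood highest or lowest at the middle of 3 embryonic stages, E14.5, are described here. A gene was taken as a peak when its level in all 3 E14.5 libraries lay above all 6 libraries of E11.5 and E16.5, and as a dip when it lay below all 6. Of 53491 genes in the deposited tables, 14394 passed the depth filter, which asked for more than 500 covered T positions in all 3 libraries of at least 1 stage. Of these, 972 peaked (6.75% of the genes compared) and 1126 dipped (7.82%). Because the members were picked by their levels, their number and their differences are a description and not a test.

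The series was made to follow RNA decay by SLAM-seq, in which 4-thiouridine (4sU), a uridine analogue, marks newly made RNA and is read as T-to-C conversions. Primary cells of wild-type (WT) mouse cortex had 3 replicates (A, B and C) at each of E11.5, E14.5 and E16.5. A replicate was its own pool, which joined the cortices of 7 embryos for E11.5 and of 2 for each later stage. All cells received 100 uM 4sU for 20 h and then 5 mM uridine, and 1 well of each pool was lysed at 0, 2, 4, 8 and 12 h of this chase, which gave 45 libraries. The 9 libraries at 0 h carry the main comparison.

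A stage here is therefore the age at dissection followed by 4sU labelling in culture, in a progenitor medium with bFGF and after trypsin steps that were longer at later stages. Stage, trypsin time and the response to culture cannot be told apart in this design. Pool size differed between E11.5 and the later stages and was the same at E14.5 and E16.5. In bulk RNA, fewer cells of a type and less RNA per cell cannot be told apart either. Letters shared between stages mark different embryos.

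During cortical neurogenesis, radial glia (the neural stem cells lining the ventricle) give rise to intermediate progenitors and to neurons that settle first in deep and then in upper layers. Interneurons enter the cortex from the ventral forebrain, and oligodendrocyte precursors appear later. The integrated stress response is a program in which phosphorylated eIF2 lowers protein synthesis while the factor ATF4 switches on genes for amino acid synthesis, uptake and tRNA charging. It is known to respond to amino acid shortage, stress in the endoplasmic reticulum and other strains.

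The libraries at 0 h held 19.1 M to 43.0 M recovered reads (median 27.8 M), and 3 of them stood apart in a feature of their own. Library C of E11.5 held more RNA of Gm42418, a locus overlapping ribosomal RNA, at 1.04% of its reads against 0.501% and 0.419% in libraries A and B of that stage. Library B of E16.5 held Ttr, the transthyretin gene typical of choroid plexus, at 310 CPM (read counts scaled to the library total), against 0 and 0.134 CPM in the other libraries of that stage. Library A of E14.5 had 0.0212 CPM of the Y-linked Ddx3y and 59.6 CPM of Xist, whereas library B had 57.1 and 0 CPM, so that the pools of 2 embryos differed in their mix of sexes. The cortical marker Emx1 was present in every library, with a median of 74.2 CPM at E11.5, 25.2 CPM at E14.5 and 21.4 CPM at E16.5.

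To relate the peaks and dips to the spread between pools, E14.5 was set against the mean of E11.5 and E16.5 with limma on log2(CPM + 0.5). At a Benjamini-Hochberg adjusted p under 0.05, 3394 genes were higher (23.6% of the genes compared) and 3174 lower (22.1%). Asking for a call against both other stages left 767 higher (5.33%) and 920 lower (6.39%). Of the peaks, 709 were called against both stages, and of the dips 859 were. Both comparisons share the E14.5 libraries, so they are given side by side and not as independent support.

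Most members moved modestly. The smaller of the differences from the other stages had a median of 0.29 on the log2 scale for peaks (1.23-fold) and of -0.36 for dips (1.29-fold), and it passed 1 in 70 peaks and 77 dips. In 747 of the 972 peaks and 799 of the 1126 dips the other stages lay within 0.5 log2 units of each other. At the edge of the definition the choice was fine. Huwe1, whose lowest E14.5 library (536 CPM) exceeded its highest other library by 0.00014 log2 units, counted as a peak, and Rab30, with 56.3 CPM in both of these libraries, missed it by 0.00012. On the depth side, Alox5ap with 505 covered Ts was kept and Gm50163 with 499 was not.

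**Figure D1:**
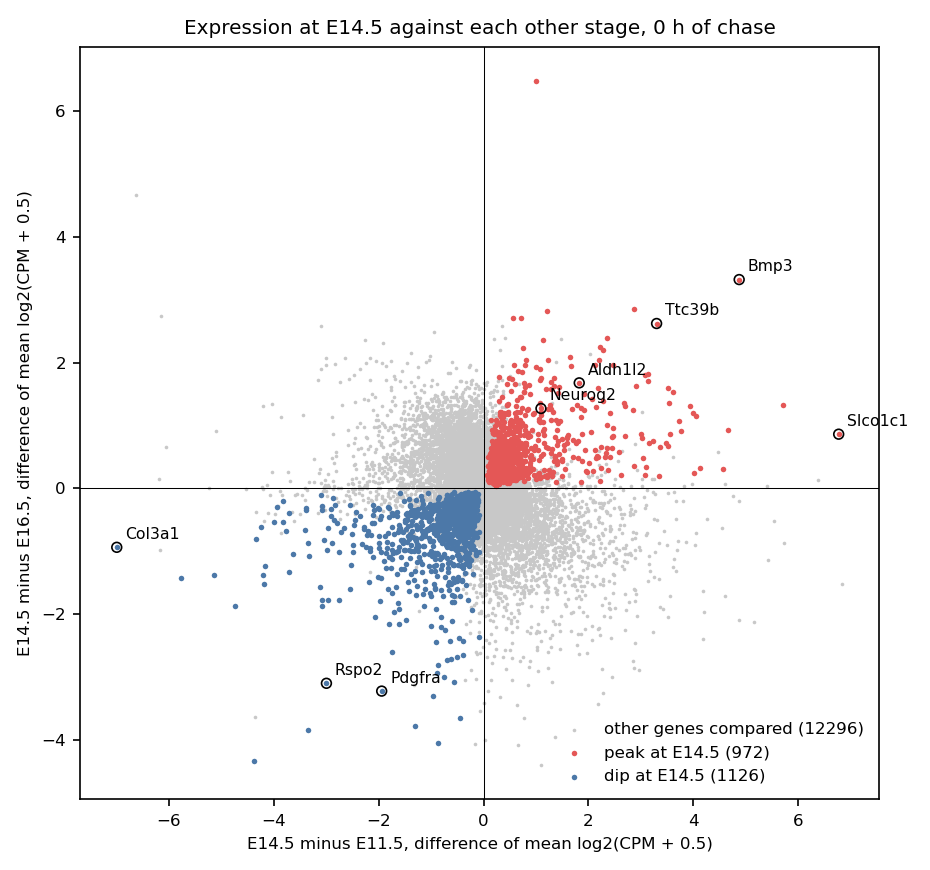
Each point is 1 of the 14394 genes compared. The horizontal axis gives the difference of the mean log2(CPM + 0.5) between E14.5 and E11.5, the vertical axis that between E14.5 and E16.5, over 3 libraries per stage. The 972 peaks fill the upper right and the 1126 dips the lower left, most of them near the origin, and ringed genes are named.

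The tallest peak described was nearly absent at the other stages. Bmp3, which encodes a bone morphogenetic protein family member that antagonises BMP signalling (GRCm38 chr5:98854415-98884396), read 0.430, 0.289 and 0.346 CPM at E11.5 in libraries A to C. At E14.5 it read 21.7, 26.9 and 25.1 CPM, and at E16.5 1.83, 1.40 and 3.04 CPM. The groups did not overlap, and the difference was 4.87 ± 0.20 log2 units (SE) against E11.5 and 3.32 ± 0.20 against E16.5 (limma, adjusted p = 6.8e-10 and 5.9e-08).

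Ttc39b, a tetratricopeptide-repeat gene (chr4:83220300-83324255), was the tallest peak at a high level. It measured 166, 131 and 146 CPM at E14.5, against 13.1 to 16.6 CPM at E11.5 and 21.9, 21.5 and 27.5 CPM at E16.5. It was at least 6.15-fold above either stage mean on the log2(CPM + 0.5) scale (adjusted p from limma at most 1.0e-08). Ddr2, a receptor tyrosine kinase for collagen, measured 74.9, 79.4 and 87.1 CPM at E14.5 and at most 24.6 CPM in the other libraries. Trim66 reached 30.8, 34.4 and 35.4 CPM, with 5.19 to 8.56 CPM elsewhere.

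Further large peaks were Ryr2, the calcium release channel known from heart (21.3, 21.9 and 23.0 CPM at E14.5, others up to 8.81 CPM), and Deptor, an inhibitor of mTOR (24.2, 21.3 and 19.6 CPM, others up to 6.56 CPM). Fbln5, which encodes an elastic fibre protein, read at least 11.7 CPM at E14.5 and at most 4.38 CPM in the other libraries. P2rx3, Cass4 and Galnt15 were low genes even at their peak, between 2.01 and 7.25 CPM at E14.5. P2rx3 shares exon bases with Ssrp1 on the other strand, and whether counting used the strand is not given in the sources used here. The 11 large peaks named here, Aldh1l2 of the stress response included, were picked among genes called against both stages. Their calls are therefore part of the choice and not a result. P2rx3, Cass4 and Galnt15 passed the depth filter through E14.5 alone, where they are high, so their calls are no support.

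Among the 12 largest dips, Rspo2, a secreted enhancer of Wnt signalling made in the cortical hem (chr15:43020794-43170826), fell furthest. It read 0.467, 0.396 and 0.215 CPM at E14.5, while E11.5 had 3.60, 4.42 and 15.0 CPM and E16.5 had 6.16, 6.38 and 8.04 CPM. The difference was -2.99 ± 0.37 log2 units against E11.5 and -3.10 ± 0.37 against E16.5 (SE; limma, adjusted p = 1.8e-05 and 1.6e-05). Its relative Rspo3 was a peak, with 169, 159 and 167 CPM at E14.5 against 6.10, 6.88 and 16.7 CPM and 134, 128 and 133 CPM. The step of Rspo3 from E14.5 to E16.5 did not pass the test (adjusted p = 0.29).

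Pdgfra, the receptor that marks oligodendrocyte precursors and also meningeal fibroblasts, read 1.17, 1.68 and 1.42 CPM at E14.5. It stood at 5.43 to 7.88 CPM at E11.5 and at 13.7 to 22.8 CPM at E16.5, so that all groups were apart. Peg10, a placental gene derived from a retrotransposon and expressed from the paternal allele, was the most abundant of the largest dips. It measured 105, 111 and 106 CPM at E14.5 against 359, 319 and 378 CPM at E11.5 and 486, 347 and 449 CPM at E16.5, at least 3.27-fold lower. Kif26b, a kinesin family member, read 21.1, 18.2 and 16.4 CPM at E14.5 and 55.8 to 92.2 CPM elsewhere.

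Thbd, the thrombin receptor thrombomodulin, had 2.42 to 3.26 CPM at E14.5 and at least 9.01 CPM in every other library. Chrm3, a muscarinic acetylcholine receptor, had 0.552, 0.923 and 0.993 CPM against at least 3.58 CPM, and Cbln2, a synaptic organiser, had 5.20, 4.22 and 3.49 CPM against at least 13.9 CPM. Ccdc85a, Zfp503, Fam222a, Col6a2 and Dlx2 complete the set. All 12 were picked among genes called against both stages, so these calls are part of the choice and not a result.

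**Figure D2:**
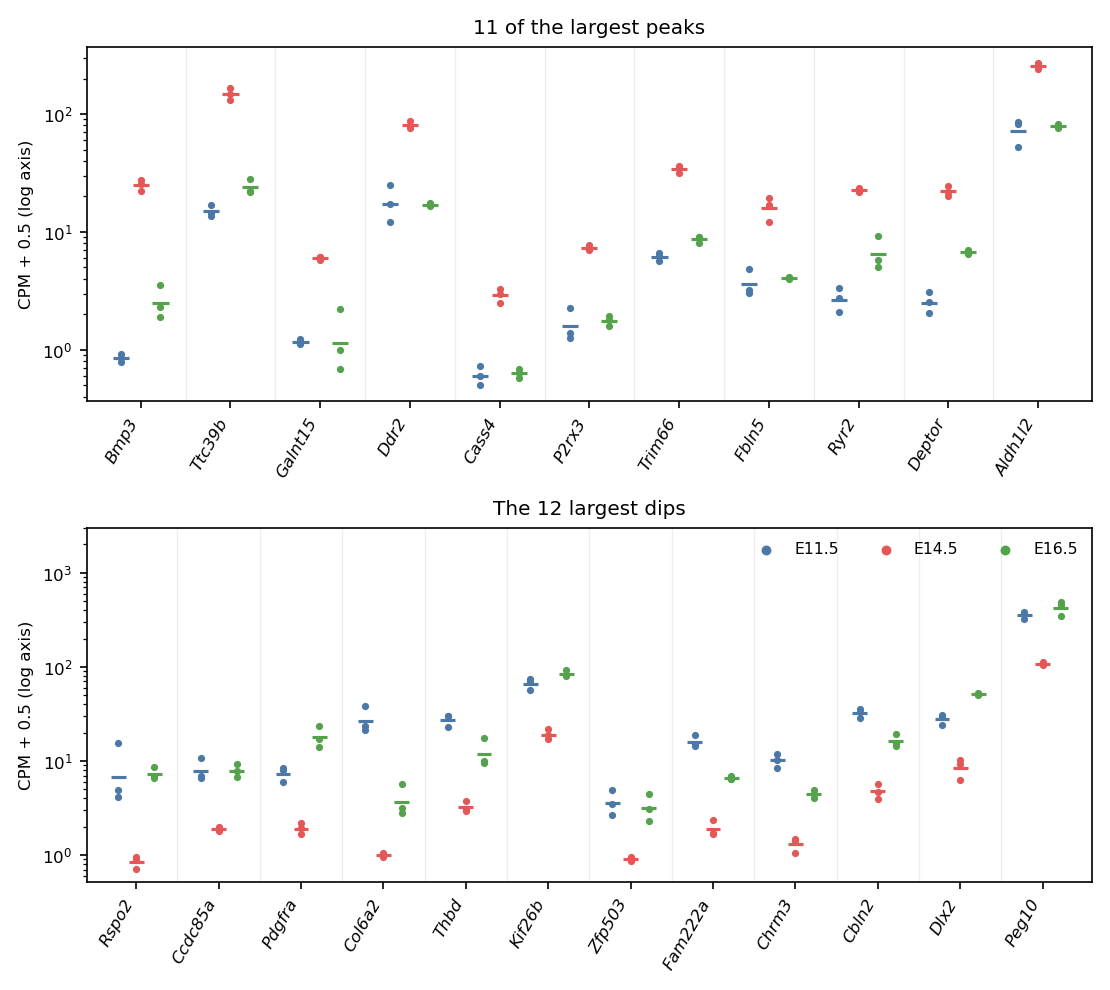
CPM + 0.5 on a log axis for 11 of the largest peaks (top) and the 12 largest dips (bottom) among protein-coding genes called against both other stages. Points are libraries at 0 h (3 per stage) and bars are means of the log values. In each gene the 3 E14.5 points lie outside the range of the 6 others.

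Lists of genes for cell types and processes were drawn up at the start, but with earlier results of these data known. Across them, the integrated stress response peaked most often, which is a description and not a test. Of its 21 compared genes, 16 peaked and none dipped, against 6.75% and 7.82% of all genes compared. Against the mean of the other stages 20 of the 21 were called higher, beside 23.6% of all genes compared, and the remaining one, Gdf15, was not called. The list had a median difference of 0.98 log2 units, beside 0.02 over all genes compared. Its summed level was 4974 to 5243 CPM at E14.5, above the 2841 to 3679 CPM at E11.5 and the 1973 to 2096 CPM at E16.5, with no overlap.

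Atf4, the factor at the centre of the program, measured 586, 565 and 586 CPM at E14.5, against 364, 337 and 348 CPM at E11.5 and 298, 284 and 265 CPM at E16.5. The difference was 0.73 ± 0.06 and 1.04 ± 0.06 log2 units (SE; limma, adjusted p = 5.5e-07 and 6.4e-08). Its relative Atf5 had 405, 460 and 387 CPM at E14.5 and at most 337 CPM elsewhere. Among regulators that act downstream, Trib3, a pseudokinase, had 26.6, 27.8 and 30.2 CPM against at most 21.3 CPM. Nupr1, a small stress protein, had 8.13, 11.9 and 9.39 CPM against at most 5.53 CPM. Ddit3, which encodes CHOP, was no peak, with at least 15.5 CPM at E14.5 and 15.7 to 16.6 CPM at E16.5.

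Among the enzymes, Asns, asparagine synthetase, read 575, 550 and 676 CPM at E14.5, 255, 307 and 190 CPM at E11.5 and 194, 179 and 184 CPM at E16.5. The E14.5 libraries were clear of all others, and the smaller of the differences was 2.43-fold (adjusted p at most 4.9e-06). Aldh1l2, a mitochondrial enzyme of folate metabolism (chr10:83487450-83534140), had 240, 270 and 250 CPM against 51.7 to 84.9 CPM. Chac1, which degrades glutathione, had 70.1, 64.4 and 58.3 CPM at E14.5, with 10.9 to 16.3 CPM at E11.5 and 23.4 to 25.7 CPM at E16.5. Library C of E11.5 was the lowest of its stage for Aldh1l2, Asns, Slc7a3 and Shmt2. Leaving out a library of another stage cannot remove a peak, so the count of 16 without it is no check. The median difference of the stress response list was 1.01 log2 units without that library.

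The transporters of the list peaked as well. Slc7a3, a carrier of cationic amino acids, had 111, 108 and 120 CPM at E14.5 and 25.1 to 46.4 CPM elsewhere. Slc7a5, which imports large neutral amino acids, had 832, 918 and 803 CPM against at most 667 CPM. Slc7a11, the cystine importer, had 59.9, 62.8 and 71.7 CPM against at most 45.4 CPM. The lead of Phgdh, the first enzyme of serine synthesis, over E11.5 was slight, with 90.9 to 102 CPM against 72.8 to 84.3 CPM (adjusted p = 0.046).

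Because these genes serve amino acid supply, wider lists of that kind were drawn up after the values were seen, and their counts are descriptions only. Over all genes compared, 6.75% peaked and 7.82% dipped. Of 21 cytosolic aminoacyl-tRNA synthetases, which charge tRNAs, 11 peaked and none dipped, with a median difference of 0.50 log2 units. Nars, the asparagine enzyme, measured 445, 450 and 545 CPM at E14.5, 304, 320 and 275 CPM at E11.5 and 259, 251 and 254 CPM at E16.5. Gars, the glycine enzyme, measured 643, 643 and 648 CPM at E14.5, with 383 to 499 CPM and 376 to 381 CPM at the other stages. Of the 7 that were neither peaks nor called higher (Dars, Farsa, Hars, Kars, Qars, Vars and Wars), Qars was called lower.

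Of 17 enzymes of amino acid and one-carbon metabolism, 12 peaked and all 17 were called higher, with a median of 0.89. Over all genes compared, 6.75% peaked and 23.6% were called higher. The stress response list shares 6 of these genes, and of the other 11 there were 7 peaks. Cth, which makes cysteine, had 57.1, 64.5 and 80.1 CPM at E14.5, 22.9 to 32.8 CPM at E11.5 and 8.11 to 9.59 CPM at E16.5. Psph, the last enzyme of serine synthesis, had 171, 168 and 175 CPM against at most 92.1 CPM. Of 20 amino acid transporters, 10 peaked, none dipped and 3 were called lower. The stress response list shares 3 of them, and of the other 17 there were 7 peaks. Slc7a1, another carrier of cationic amino acids, had 426, 445 and 418 CPM against 193 to 224 CPM.

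**Figure D3:**
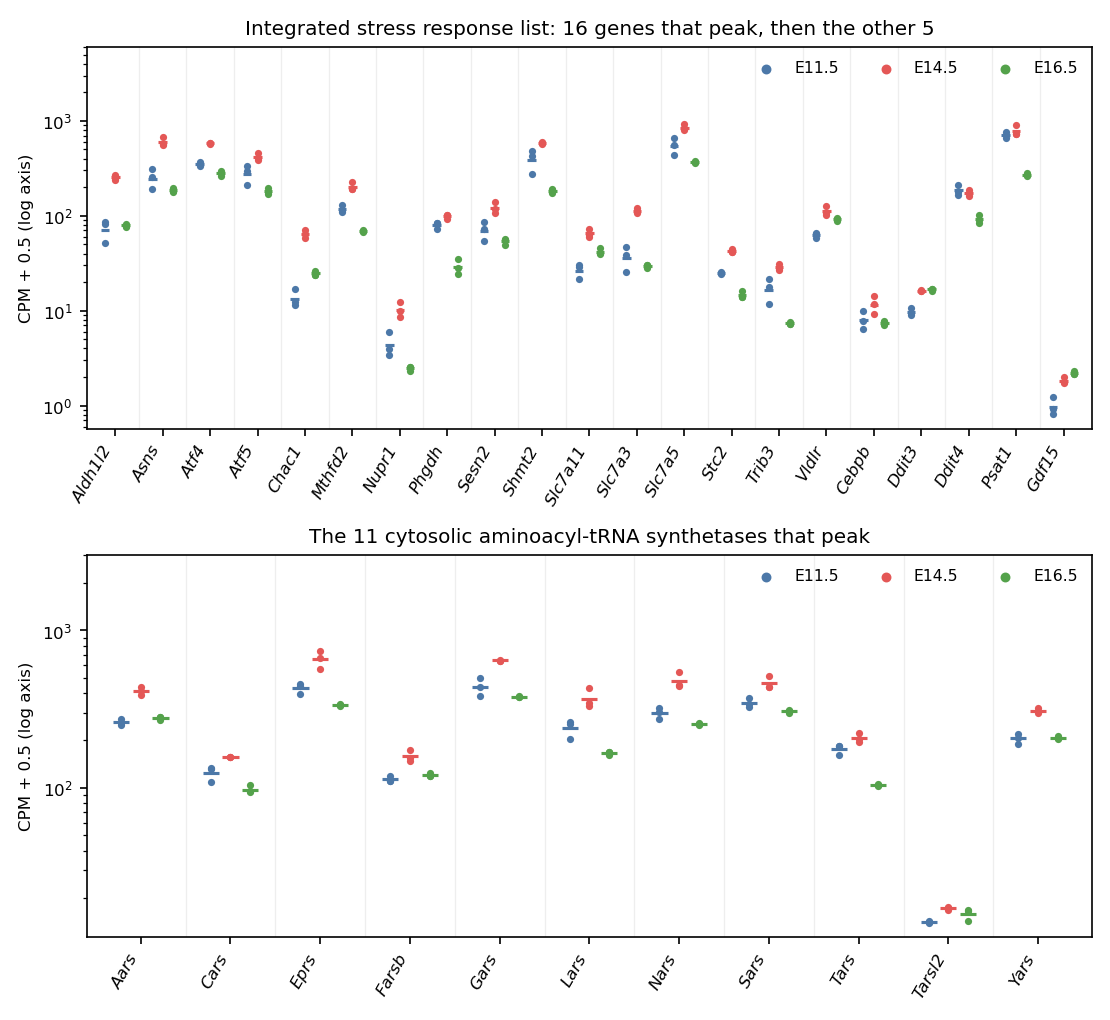
CPM + 0.5 on a log axis for the 21 genes of the integrated stress response list (top, the 16 peaks first) and for the 11 cytosolic aminoacyl-tRNA synthetases that peaked (bottom). Points are libraries at 0 h and bars means of the log values for each stage. The E14.5 points lie above all others for the peaks, narrowly for Phgdh, Vldlr and Tarsl2.

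ATF4 acts with C/EBP factors at composite sites of the form TGATGNAA, and this motif was looked for on both strands from 250 bases before to 50 after the start site in RefSeq promoters (GRCm38.p6). It was present for 6 of the 13 stress response peaks with a promoter, for 0 of the 5 other stress response genes and for 4 of the 8 such synthetase peaks. Of all 27025 genes with a promoter, 4.51% had it. The stress response list was made of genes of this program, so a high share there follows from the list. A link between the motif and the peaks was not tested. Over all members it was present for 51 of 667 peaks (7.65%) and 15 of 850 dips (1.76%), beside 2.66% of the 9937 compared genes with a promoter. A match is a description of letters and not a bound site. Windows of 30 bases upstream of the start are given for 4 of these genes, to show where the letters matched. They run 5′ to 3′ along the gene with the motif, or its reverse complement TTNCATCA, in capitals:
Asns (chr6:7693214-7693243, minus strand): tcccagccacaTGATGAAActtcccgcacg
Slc7a11 (chr3:50443661-50443690, minus strand): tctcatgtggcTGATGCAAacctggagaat
Chac1 (chr2:119351038-119351067, plus strand): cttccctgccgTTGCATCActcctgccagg
Nupr1 (chr7:126625562-126625591, minus strand): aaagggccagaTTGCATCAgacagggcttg

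Other stress lists were also counted, beside 6.75% peaks, 7.82% dips and 23.6% called higher over all genes compared. Of 12 compared genes of the heat shock and unfolded protein list, 4 peaked, 1 dipped and 7 were called higher (median 0.28). Herpud1, a gene of endoplasmic reticulum stress, had 73.1, 64.6 and 70.5 CPM at E14.5 against 28.7 to 34.1 CPM and 41.6 to 42.8 CPM. Of 16 p53 targets Sesn2 peaked, which also stands in the stress response list, and 2 were called higher. Without library C of E11.5, 5 p53 targets were called higher. There were then 3 peaks, but leaving out a library of another stage can only add peaks, so that count is no check. Of 28 genes of glycolysis and hypoxia, Vegfa peaked (80.0, 94.2 and 84.2 CPM against at most 64.0 CPM) and Pfkl dipped. Of 21 cholesterol genes 13 were called higher than the mean of the other stages but 1 peaked. Of 5 compared interferon genes 1 dipped. The 8 histone genes matched were too low to compare.

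The cells of the cortical lineage gave a mixed picture. Of 11 compared markers of intermediate progenitors, 3 peaked, none dipped, and 6 were called higher than the mean of the other stages (median 0.48). Over all genes compared, 6.75% peaked, 7.82% dipped and 23.6% were called higher. Neurog2, the proneural factor that drives radial glia into glutamatergic neurogenesis (chr3:127633135-127635631), measured 45.0, 40.1 and 39.6 CPM at E14.5. It had 19.4, 19.2 and 18.95 CPM at E11.5 and 19.1, 15.9 and 15.9 CPM at E16.5, a lead of 1.09 ± 0.09 and 1.27 ± 0.09 log2 units (SE; limma, adjusted p = 3.9e-07 and 2.0e-07). Rhbdl3, a rhomboid-like protein, rose similarly, with 23.7, 27.0 and 26.7 CPM against 10.1 to 12.8 CPM and 4.49 to 4.91 CPM.

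Sstr2, a somatostatin receptor, had 128, 128 and 124 CPM at E14.5, 25.2 to 35.2 CPM at E11.5 and 95.5 to 114 CPM at E16.5. Its step to E16.5 had an adjusted p of 0.040 in limma and 0.082 in edgeR on covered Ts, and the alternatives ranged from 0.00957 to 0.158. The call was also lost without any 1 library of E14.5, without B or C of E16.5 and without A of E11.5. Neurod4, a proneural factor, had too few covered Ts to be compared, with 45, 25 and 30 reads at E14.5 against 6, 4 and 3 at E11.5 and 7, 7 and 12 at E16.5.

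Eomes (Tbr2), the factor that defines intermediate progenitors, did not peak. It fell from 52.1, 53.6 and 57.6 CPM at E11.5 to 39.2, 36.3 and 31.7 CPM at E14.5 and to 27.5, 28.8 and 21.4 CPM at E16.5, and both steps were called (adjusted p = 0.00045 and 0.0031). Neurod1 rose across the stages and Btg2, an antiproliferative gene of neurogenic progenitors, fell across them, with 81.6 to 86.3 CPM at E14.5. Pax6 fell from 78.9 to 93.9 CPM through 47.7 to 50.7 CPM to 25.5 to 30.5 CPM. Of 12 radial glia markers, only the glutamate transporter Slc1a3 peaked (252, 279 and 340 CPM, others up to 205 CPM), beside 6.75% of all genes compared.

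Of 16 markers of newborn neurons, 2 peaked and 10 were called higher than the mean of the other stages, beside 6.75% and 23.6% of all genes compared. The list median was 1.20 log2 units against E11.5 and -0.31 against E16.5, so the list did not stand highest at E14.5. Cntn2, an axonal adhesion protein, had 752, 810 and 794 CPM at E14.5, 84.8, 90.6 and 118 CPM at E11.5 and 388, 425 and 563 CPM at E16.5. Neurod6 led E16.5 by 0.20 ± 0.07 log2 units (adjusted p = 0.028), and this call was lost with TMM scaling (0.051), with DESeq2 (0.077) and without A or C of E14.5 or any 1 library of E16.5 (range over the alternatives 0.0045 to 0.13). Unc5d, a netrin receptor, rose from E11.5 to E16.5 instead, and Rnd2 stood at 88.0 to 110 CPM at E14.5, overlapping the 96.7 to 144 CPM of E11.5.

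Neuronal layer markers split in a similar way. Of 12 compared deep-layer genes, Bcl11b, Lmo3 and Sox5 peaked and Crym dipped, beside 6.75% and 7.82% of all genes compared. Sox5 was not called against both stages. The step of Lmo3 to E16.5 (limma, adjusted p = 0.038) was lost with TMM scaling (0.060) and without A or C of E14.5 or any 1 library of E16.5. Its range over the alternatives was 0.016 to 0.13. Bcl11b (Ctip2) had 261, 263 and 244 CPM at E14.5 against 118 to 126 CPM and 221 to 235 CPM, and its step to E16.5 (0.17 ± 0.06, adjusted p = 0.022) was lost with TMM scaling (0.055) and without A or B of E14.5 or A or C of E16.5 (range over the alternatives 0.00956 to 0.106). Tbr1 did not peak, with 258 to 300 CPM at E14.5 and 338 to 374 CPM at E16.5. Of 12 upper-layer genes, Pou3f3, Cux1 and Plxnd1 dipped, of which only Pou3f3 was called against both stages (332, 330 and 335 CPM against at least 420 CPM). None of 5 compared markers of Cajal-Retzius cells peaked or dipped, and Reln had 141, 155 and 155 CPM at E14.5 within 103 to 197 CPM at E16.5.

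Several interneuron genes dipped. Of 18 compared genes none peaked and 7 dipped, beside 6.75% and 7.82% of all genes compared, and these 7 were called against both stages. Against the mean of the other stages 3 were called higher (Gad1, Lhx6 and Sst) and 10 lower, beside 23.6% and 22.1% of all genes compared. The median difference was -0.55 log2 units. The median was 0.24 against E11.5 and -2.08 against E16.5. Dlx2, a homeobox factor of the ventral forebrain (chr2:71543408-71546754), had 9.68, 8.90 and 5.72 CPM at E14.5, 30.2, 29.9 and 23.6 CPM at E11.5 and 49.4, 51.9 and 50.7 CPM at E16.5. Cxcr4, the chemokine receptor of migrating interneurons, had 17.5, 19.1 and 20.1 CPM against 52.3 to 62.9 CPM and 37.7 to 45.5 CPM. Maf, Calb1, Dlx5 and Dlx6 were among the other dips.

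The list did not move as one. Sst, the peptide of a large interneuron class, had 69.5, 64.5 and 44.6 CPM at E14.5, at most 0.0481 CPM at E11.5 and 152 to 188 CPM at E16.5. Lhx6, a factor of interneurons from the medial ganglionic eminence, rose in the same order, with 15.4 to 17.1 CPM at E14.5 and 66.6 to 76.7 CPM at E16.5. The summed level of the list was 273 to 312 CPM at E14.5, 340 to 343 CPM at E11.5 and 786 to 816 CPM at E16.5.

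Glial precursor genes divided. Of 10 compared, Pdgfra, Cspg4, Apoe and Sox10 dipped, while Egfr, Olig1, Olig2, Tnc and Aldoc were called higher than the mean of the other stages. Over all genes compared, 7.82% dipped and 23.6% were called higher. Sox10 was not called against both stages. Cspg4 (NG2) had 3.33, 4.88 and 2.28 CPM at E14.5 against 4.91 to 9.57 CPM and 8.64 to 9.86 CPM. Olig2 had 115, 177 and 125 CPM at E14.5, 26.2 to 39.9 CPM at E11.5 and 115 to 126 CPM at E16.5.

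Genes of cells outside the neural lineage varied in pattern. Collagen chains, a list drawn up after the values were seen, had 11 dips and no peak among 27 compared, with a median of -1.07. Over all genes compared, 7.82% dipped and 6.75% peaked. Col4a1 and Col4a2, neighbouring genes for basement membrane collagen that overlap each other, had 8.15 to 9.10 CPM and 4.69 to 5.71 CPM at E14.5. At E16.5 they had 19.1 to 32.1 CPM and 13.7 to 20.3 CPM, and at E11.5 154 to 204 CPM and 88.3 to 136 CPM. Col3a1, a fibroblast collagen, had 1.57, 1.75 and 2.04 CPM at E14.5, 242 to 359 CPM at E11.5 and 3.20, 7.32 and 2.38 CPM at E16.5.

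Of 12 compared genes of meninges and mural cells, 11 were called lower, 4 dipped (Lum, Col3a1, Acta2 and Abcc9) and Dcn peaked. Over all genes compared, 22.1% were called lower and 7.82% dipped. Their summed level was 497 to 758 CPM at E11.5, 20.8 to 25.4 CPM at E14.5 and 20.0 to 45.3 CPM at E16.5, so that the later stages overlapped. The call of Acta2 was lost without library B of E16.5 (adjusted p = 0.12), without library B of E14.5 (0.060) and without library C of E14.5 (0.081), over a range of 0.0047 to 0.12 in the alternatives. Leaving out library B of E16.5 cannot remove a dip, so the counts of 11 collagen and 4 meningeal dips without it are no check. The median differences without it were -1.08 log2 units for collagens and -1.55 for the meningeal list.

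Erythroid genes had 1808 to 3933 CPM in sum at E11.5, 91.0 to 149 CPM at E14.5 and 87.8 to 208 CPM at E16.5. Of 10 compared, 9 were called lower and Alas2 dipped, beside 22.1% and 7.82% of all genes compared. The list median was -3.87 log2 units against E11.5 and 0.20 against E16.5, so the list was not lower than at E16.5. The step of Alas2 to E16.5 did not pass the test (limma, adjusted p = 0.052), with up to 1.61 CPM at E14.5 and at least 1.64 CPM at E16.5. Endothelial genes summed to 104 to 136 CPM at E11.5, 147 to 165 CPM at E14.5 and 77.5 to 93.3 CPM at E16.5. Of 4 of them that were compared, 2 were called lower, and the median difference was -0.42 log2 units (-0.99 against E11.5 and 0.37 against E16.5). Slco1c1, a thyroid hormone transporter also made by astroglia, peaked at 80.9, 68.9 and 95.6 CPM and made up much of the E14.5 sum. It had 0.156 to 0.308 CPM at E11.5 and 40.5 to 53.2 CPM at E16.5. None of 5 microglial genes was called, and that list summed to between 11.1 and 24.8 CPM in every library. Of 4 compared choroid plexus and hem genes, Rspo3 peaked and Rspo2 dipped. The part that these cells have in the dips was not tested.

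**Figure D4:**
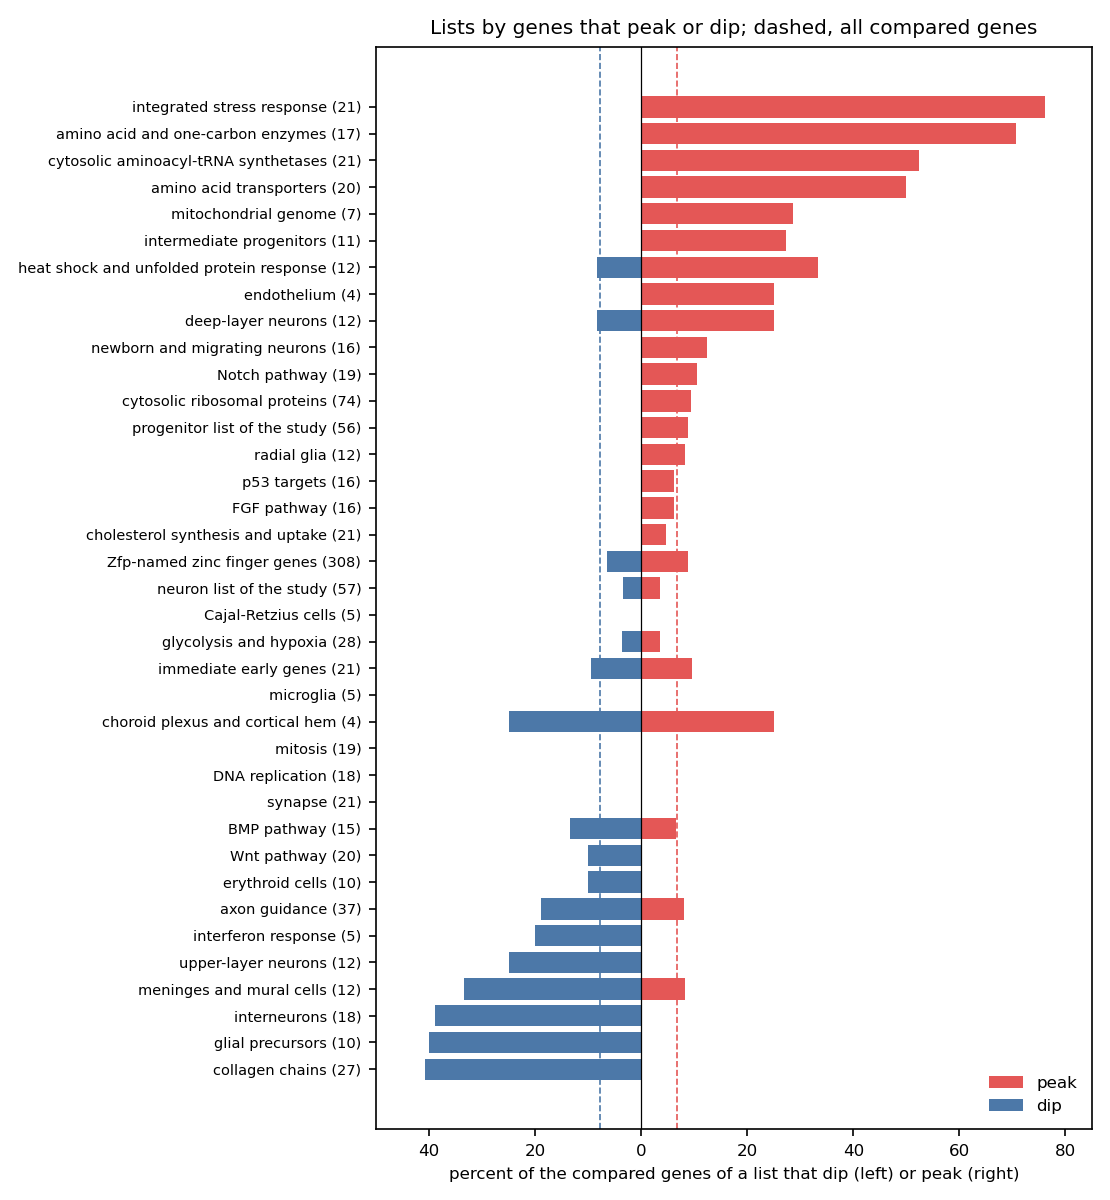
For each list, the bars give the percent of its compared genes (number in brackets) that peaked, to the right, or dipped, to the left, at E14.5. Dashed lines mark the 6.75% and 7.82% of all 14394 genes compared. The stress response and amino acid lists reach furthest to the right, and collagen, glial precursor and interneuron lists furthest to the left. The 4 lists on aminoacyl-tRNA synthetases, transporters, enzymes and collagens were drawn up after the values were seen, and the other lists were chosen with earlier results of these data known.

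Proliferation genes show that a call against the mean of the other stages is not a peak. Of 19 mitosis genes 17 were called higher in that contrast and none peaked, beside 23.6% and 6.75% of all genes compared. Their median difference was -0.31 log2 units against E11.5 and 1.22 against E16.5. Top2a, a topoisomerase of dividing cells, had 470 to 535 CPM at E11.5, 397 to 490 CPM at E14.5 and 163 to 188 CPM at E16.5. Of 18 DNA replication genes 9 were called higher, 1 lower and none peaked. Of 21 synapse genes 12 were called higher, 3 lower and none peaked.

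Signalling lists held few members each, beside 6.75% peaks and 7.82% dips over all genes compared. Counts this small are not a result about the lists, and single genes are described. In the FGF list of 16, Dusp6, a feedback phosphatase of ERK, had 412, 409 and 479 CPM at E14.5 against 150 to 160 CPM and 225 to 276 CPM, and it was the sole peak. In the Notch list of 19, Hey2, a target of the pathway, peaked at 2.25, 2.37 and 1.77 CPM with at most 0.948 CPM elsewhere. It held 14 to 40 reads in the other libraries, and its depth came from E14.5, where it is high, so its call is no support. The ligand gene Dll4 peaked without a call against E16.5 (limma, adjusted p = 0.18). In the Wnt list of 20, the ligand Wnt5a (4.12, 5.11 and 5.23 CPM against at least 7.12 CPM) and the receptor Fzd7 dipped. In the BMP list of 15, Smad5 peaked, and Id1 and Chrd dipped without a call against both stages.

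Of 37 axon guidance genes 3 peaked and 7 dipped, beside 6.75% and 7.82% of all genes compared. Sema3d, a secreted semaphorin, had a median of 3.95 CPM at E14.5, with all 3 libraries above the others, and at most 2.00 CPM elsewhere, and Epha5, an ephrin receptor, had 265 to 301 CPM against at most 225 CPM. Unc5c, a netrin receptor, dipped to 1.02, 1.15 and 1.23 CPM from 1.84 to 4.00 CPM, with 11.4 to 12.7 CPM at E16.5. Of 21 immediate early genes, Arc (132, 171 and 118 CPM against 56.2 to 71.4 CPM) and Atf3 (6.30 to 6.58 CPM against at most 3.26 CPM) peaked, while Nr4a1 and Ier2 dipped. Nr4a1 had 12.0 to 16.4 CPM at E14.5 and 20.5 to 27.9 CPM elsewhere.

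In the lists that the study took for progenitors and neurons from single-cell data, 5 of 56 and 2 of 57 genes peaked, and none and 2 dipped. Over all genes compared, 6.75% peaked and 7.82% dipped. Nfia and Nfib are transcription factors of gliogenesis and neuronal maturation. Nfia had 347, 374 and 335 CPM at E14.5 and 171 to 192 CPM elsewhere, and Nfib had 1527 to 1684 CPM against at most 1002 CPM. Of 308 zinc finger genes named Zfp, 27 peaked and 20 dipped, close to the shares of all genes compared. Zfp523 dipped to 31.4 to 32.9 CPM from 51.5 to 55.7 CPM in both other stages.

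Some extreme members have near-identical copies, and their values are uncertain. Of 74 ribosomal protein genes 7 peaked and 38 were called higher, beside 6.75% and 23.6% of all genes compared. Rps3a1 had 121, 120 and 135 CPM at E14.5, 70.3 to 93.3 CPM at E11.5 and 17.2 to 48.6 CPM at E16.5. Its processed copy Rps3a3 was the deepest dip of all members, with 2.76, 3.66 and 3.01 CPM at E14.5 against 41.2 to 127 CPM elsewhere. The sum of Rps3a1, Rps3a2 and Rps3a3 was 141 to 156 CPM at E14.5, inside the 98.6 to 182 CPM of the other libraries, so the split of reads between the copies moved and their total did not peak. Of the peaks, 116 were annotated as pseudogenes (11.9%), as were 46 of the dips (4.09%) and 10.9% of all genes compared.

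Of 7 compared genes of the mitochondrial genome, mt-Co1 and mt-Co2 peaked and 4 were called higher, beside 6.75% and 23.6% of all genes compared. The step of mt-Co1 to E16.5 did not pass the test (limma, adjusted p = 0.11). Without library B of E16.5 there were 4 peaks, a count that leaving out a library of another stage can only raise. The share of reads from that genome was 0.528% to 0.635% at E14.5, 0.299% to 0.434% at E11.5 and 0.429% to 0.536% at E16.5, so that the later stages overlapped. Protein-coding genes made up 83.5% of peaks, 92.2% of dips and 83.9% of the genes compared. The median level over the stages was 34.3 CPM for peaks, 20.5 CPM for dips and 26.0 CPM for all. Of the peaks, 53 passed the depth filter at E14.5 alone, and 163 dips passed it without E14.5.

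To see whether the pattern was found in other wells of the same pools, the definition was applied at the later chase times. Of the 972 peaks, 508, 574, 591 and 664 were again above all other stages at 2, 4, 8 and 12 h, when 4.73%, 7.12%, 7.21% and 12.5% of all genes compared were. Of the 1126 dips, 799, 612, 704 and 371 were again below, against 7.95%, 6.31%, 7.39% and 3.62%. These wells share the embryos of the 0 h libraries and repeat the measurement rather than the experiment. In all, 304 peaks and 252 dips separated at all 5 times. Among them were 11 of the 16 stress response peaks, all 3 intermediate progenitor peaks and all 7 interneuron dips. In other lists these were 5 of 11 collagen dips, 2 of 4 meningeal and mural dips, 2 of 7 ribosomal protein peaks, and 0 of 4 glial precursor dips, 0 of 3 deep-layer peaks and 0 of 3 upper-layer dips.

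The 12 h values depended on scaling. Gm42418 took 3.38% to 8.16% of the reads of the E11.5 libraries at 12 h, against 0.312% to 0.347% at E14.5, and its part in these counts was not tested. In the test of the contrast at 12 h against that at 0 h, 952 genes were called higher (6.61%) and 262 lower (1.82%). With each library centred on its median, 487 peaks (50.1%) and 640 dips (56.8%) separated again at 12 h, in place of 68.3% and 32.9%. Neurog2 kept its lead throughout, with contrasts of 1.42, 1.56, 1.69 and 1.73 log2 units at 2, 4, 8 and 12 h and 1.18 at 0 h. Bmp3 went from 4.10 at 0 h to 4.39, 3.95, 3.23 and 3.06, and Rspo2 from -3.05 to -3.08, -3.06, -2.88 and -2.44.

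**Figure D5:**
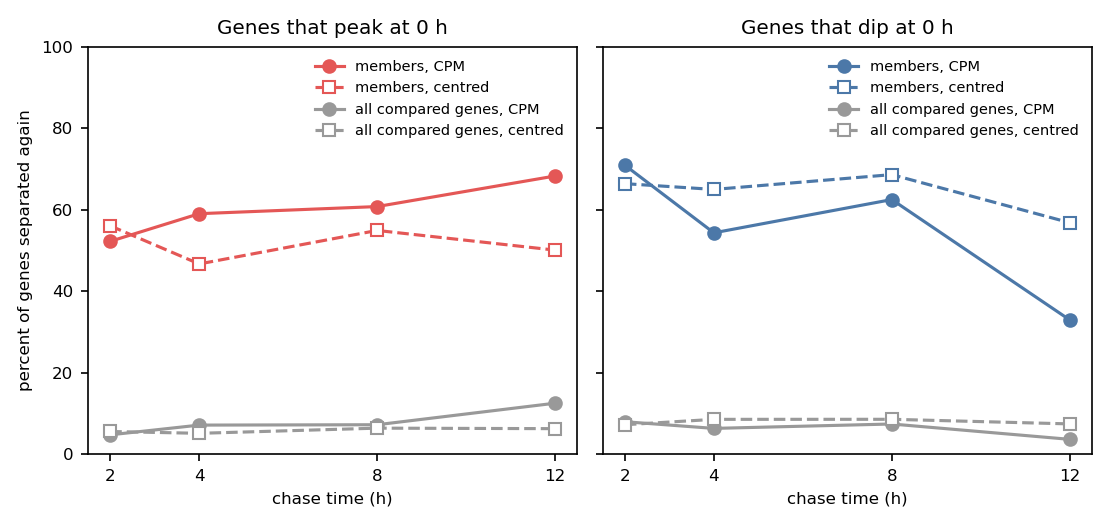
Percent of the 972 peaks (left) and 1126 dips (right) that again lay above or below all 6 other libraries at 2, 4, 8 and 12 h of chase. Filled circles use CPM and open squares use values centred on each library's median, and grey marks give all genes compared. Members lie between 32.9% and 71.0% and all genes between 3.62% and 12.5%.

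The half-lives deposited with the tables were set beside the pattern for genes that passed the quality filters in all 3 replicates. At E14.5 the median half-life was 4.54 h for 812 peaks, 4.51 h for 761 dips and 4.60 h for all 10686 such genes. The dips lay below all genes in each E14.5 pool, with 4.39, 4.37 and 4.78 h against 4.44, 4.46 and 4.78 h in A to C, and the peaks (4.43, 4.49 and 4.79 h) lay below them in A and above in B and C. At E11.5 the medians were 4.40 h for peaks, 4.35 h for dips and 4.43 h for all genes, and at E16.5 3.49 h, 3.34 h and 3.48 h. The dip median was below that of all genes in 9 of 9 pools, which was not tested. Peaks spanned short and long-lived RNAs. Neurog2 had 2.24 h, Chac1 2.74 h, Atf4 3.65 h, Asns 6.14 h and Aldh1l2 12.9 h, and the dip Peg10 had 8.73 h.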

How the data were processed

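The 9 deposited tables, one per stage and replicate, were made by the authors with SlamDunk (v0.4.3) on mm10 and exons of GENCODE vM24, summed per gene, and read filters and strand settings are not given in the sources used here. Covered Ts were deposited as raw counts, and expression was deposited by the authors in CPM, whose denominator exceeded the tabulated reads. In all libraries 100% of CPM values were whole multiples of the smallest, to within 0.01 reads, and recovered reads served count-based alternatives. Half-lives in hours and the R2 score of their fits were deposited unfiltered by the authors, and were used here where covered Ts exceeded 500 at all 5 times, R2 exceeded 0.6 and the half-life lay under 24 h. The number of columns left without a sample was 0.

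Log2(CPM + 0.5) was fitted by stage over the 9 libraries at 0 h with limma 3.58.1 (trend) in R 4.3.3, with Benjamini-Hochberg adjustment over all 14394 genes. In simulated data for this fit, 98% of 1.5-fold changes among 200 altered genes were recovered against the mean of the other stages. The simulation gave all genes the same fixed dispersion and altered no low genes. It therefore does not give the power for low genes, for smaller changes or for calls against both stages. The contrast at 12 h was compared with that at 0 h with the pool as a random block. Alternatives used edgeR 4.0.16, DESeq2 1.42.0, TMM scaling, median centring, other pseudocounts and filters, and each library left out. Python 3.11.15 with pandas 2.3.3 and matplotlib 3.10.9 did the rest.

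Named genes were the 12 largest peaks and dips among protein-coding genes called against both stages (by the smaller difference), 13 fixed genes of neurogenesis, up to 4 members of each list and the 3 largest changes each way at 12 h. A few others were named after their values were seen, and some items that the rule picks are not reported here. The members and lists were chosen with earlier results of these data known, and 4 lists were added after the values were seen. Names and coordinates came from GENCODE M21 (GRCm38, the build of mm10), which named 96.4% of the genes. Of 114 named genes compared, 32 share exon bases with another gene. Conversion rates, deposited by the authors as a fraction of covered Ts, were not analysed here.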

Additional observations from a re-analysis of the deposited data

Results flagged for a closer look

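The E14.5 contrast differed between 0 h and 12 h of chase, by the test of the difference itself (limma with the pool as a random block), in 952 genes upward and 262 downward, and the 3 largest each way are given. Pdgfra had the largest positive difference, 1.86 log2 units (SE 0.20, adjusted p = 3.1e-05). At E14.5 it went from 1.17, 1.68 and 1.42 CPM at 0 h to 13.5, 13.2 and 10.6 CPM at 12 h, while E11.5 went from a mean of 6.93 CPM to 13.9, 17.2 and 11.1 CPM and E16.5 in the mean from 17.8 to 31.8 CPM. Dlk1 had 1.61 (SE 0.25, adjusted p = 0.00080), as it fell at E11.5 from 36.2 to 13.4 CPM on average. Egfr had 1.55 (SE 0.12, adjusted p = 5.1e-07), with E14.5 going from a mean of 30.0 to 124 CPM and E16.5 from 70.4 to 92.0 CPM.

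Klf4 had the most negative difference, -1.37 (SE 0.24, adjusted p = 0.0027), with E14.5 going from a mean of 5.87 to 2.60 CPM and E11.5 from 2.31 to 7.51 CPM. Cass4 had -1.34 (SE 0.20, adjusted p = 0.00076) and Galnt15 -1.21 (SE 0.26, adjusted p = 0.0087). Both passed the depth filter only through their E14.5 level at 0 h, which is a value in this test, so their p-values are no support for a fall. Their E14.5 means went from 2.43 to 0.563 CPM and from 5.53 to 1.62 CPM. At a pseudocount of 0.1 the calls of Cass4 and Galnt15 were lost (adjusted p = 0.063 and 0.059), and that of Galnt15 also without library C of E14.5 (0.055). All 6 kept their sign in every alternative run.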

How the results depend on the processing

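Calls at 0 h moved little. Leaving out 1 library gave 2709 to 3391 genes higher and 2607 to 3192 lower against the mean of the other stages. Against both it gave 590 to 774 higher and 768 to 918 lower. The definition of a peak or dip only gets easier with 1 library fewer. It then gave 1033 to 1414 peaks and 1202 to 1471 dips, beside 972 and 1126 with all libraries, which is no check on these counts. A log2 difference beyond 1 left 285 higher and 425 lower. The letters did not pair the stages (correlation of same-letter deviations -0.12 to 0.17), and with a replicate block there were 3252 higher and 3109 lower, with 728 and 917 against both. Of 709 called peaks and 859 called dips, DESeq2 also called 612 and 820, and edgeR on covered Ts 627 and 778. No named gene reversed, and the calls of Acta2, Bcl11b, Fdft1, Fzd7, Hsp90aa1, Hspe1, Lmo3, Neurod6, Pfkl, Robo2, Rpl36a and Sstr2 against both stages were lost in at least 1 alternative. At 12 h, TMM scaling and median centring gave 3108 and 3382 genes lower against 1962 with CPM, and centring 2935 higher against 4822. Leaving out 1 library gave 3488 to 5112 higher and 1447 to 2287 lower there, 1705 to 2537 and 2541 to 3355 at 2 h, 2780 to 3302 and 2375 to 2691 at 4 h, and 2548 to 3289 and 2507 to 3123 at 8 h. Between 12 h and 0 h, 952 genes were called higher and 262 lower, against 316 and 581 with TMM scaling and 315 and 602 with centring. The median difference over all genes was 0.09 with CPM and -0.01 with TMM scaling. Leaving out 1 library gave 221 to 1411 higher and 95 to 320 lower, both lowest without library C of E14.5. Counts also moved by over 1.5 times without A of E14.5 (415 and 131) and without A (382 and 133) or B (513 and 172) of E16.5, and higher calls without C of E16.5 (517). These settings at later times were added after the data were seen. Replicate C alone gave median half-lives of 4.79 h for peaks and 4.78 h for dips. Precision is limited by 3 pools per stage, and p-values measure the spread between these pools only.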
